A study of Rattus norvegicus with 12 samples.

Results

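The keratins Krt7, Krt8, Krt18 and Krt19, the uroplakins Upk1b and Upk3b, mesothelin (Msln) and the transcription factor Wt1 were followed in mesenteric lymph nodes (MLN) of Wistar rat pups at day 21. The members were all probe sets that the platform annotation gives to these 8 symbols, which came to 8 probe sets for 7 genes among the 31042 probe sets tested. Upk3b had no probe set in that annotation and was not measured here, and Wt1 had 2. Each of the 12 animals was hybridized to 1 Affymetrix rat genome array, with 3 arrays in each of 4 groups. Pups of group A received conjugated linoleic acid (CLA) for 5 weeks from dams on a 1% CLA diet, for 2 weeks of gestation and, through the milk, 3 weeks of suckling. In group B the dams had that diet in gestation only, and the pups were given CLA by daily gavage while suckling, again for 5 weeks in all. Pups of group C, from dams on standard diet, had CLA by daily gavage in the 3 weeks of suckling alone, and group D was the reference from dams on standard diet without CLA. The CLA was a mixture of the c9,t11 and t10,c12 isomers in parts of 80 and 20. Whether pups of groups A and D had a gavage without CLA, and from which litters the pups came, is not stated in the sources read. The p-values therefore measure the spread between these animals, which may share litters. If the 3 animals of a group come from the same litter, group and dam cannot be told apart.

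Mesothelium is the thin epithelium that covers the peritoneum, the mesentery and the surface of the abdominal organs, and its cells carry the simple keratins Krt7, Krt8, Krt18 and Krt19 together with Msln, Wt1 and uroplakins. Keratin filaments are built from a type II keratin (here Krt7 and Krt8) joined to a type I keratin (here Krt18 and Krt19), and Krt8 with Krt18 is the commonest pairing. Of these, Krt8, Krt18 and Krt19 are also made by intestinal epithelium, whereas Msln and Wt1 are not typical of it.

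Krt8 and Krt18 are neighbouring protein-coding genes on chromosome 7 of the rat, so the 250 bases before each start are shown as the sequences of 2 partners that parted in one animal of group D. They are RefSeq sequences of build GRCr8, for Krt8 chr7:135010340-135010589 on the minus strand and for Krt18 chr7:135035918-135036167 on the plus strand, each 5′ to 3′ with the gene. Capitals mark matches, on either strand, to the TATA core TATAAA, the GC box GGGCGG or the CCAAT box CCAAT.
Krt8: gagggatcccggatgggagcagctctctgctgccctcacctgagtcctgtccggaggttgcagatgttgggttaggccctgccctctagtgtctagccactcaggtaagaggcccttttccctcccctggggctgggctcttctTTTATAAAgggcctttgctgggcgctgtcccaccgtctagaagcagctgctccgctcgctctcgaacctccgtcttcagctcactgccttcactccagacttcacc
Krt18: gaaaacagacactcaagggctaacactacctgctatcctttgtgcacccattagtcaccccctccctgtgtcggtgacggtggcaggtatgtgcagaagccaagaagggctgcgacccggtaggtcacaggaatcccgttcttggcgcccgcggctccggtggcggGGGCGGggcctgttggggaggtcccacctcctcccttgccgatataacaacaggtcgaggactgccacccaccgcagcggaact
The Krt8 window held 2 overlapping matches to the TATA core, 1 on each strand, 104 and 106 bases before the start, and neither of the other motifs. The Krt18 window held 1 GC box, 84 bases before the start, and no TATA core or CCAAT box. Of all 33469 windows of this length, 12.9% held a TATA core, 30.5% a GC box and 34.0% a CCAAT box. The GC content was 60.0% for Krt8 and 62.0% for Krt18, against a median of 51.2% over all windows. These matches describe the letters only. Windows of Upk1b, Upk3b and Wt1 were also given: Upk1b held 1 CCAAT box, 78 bases before its start, and the others held none of the 3 motifs. Krt7, Krt19 and Msln had no entry.

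Values are log2 signal intensities after quantile normalization, and the background of an array is the 95th percentile over 27 control probe sets of bacterial transcripts that were not added, between 2.33 and 3.20 on this scale. Array medians of the deposited signal were 27.6 to 32.9 in group A, 19.3 to 30.9 in B, 20.2 to 27 in C and 34.3 to 38.5 in D. The hexokinase 3′ to 5′ ratio, a sign of RNA quality, was 2.84 to 4.96 in group A, 1.62 to 3.24 in B, 1.82 to 2.62 in C and 1.84 to 2.53 in D. The actin ratio was 1.37 to 1.79 in group A, 1.44 to 1.79 in B and 1.60 to 1.74 in C. In D it was 1.30 to 1.91, the last in replicate 3 and highest of all arrays. The GAPDH ratio was 1.21 to 1.53 in group A and 1.10 to 1.12 in B. In C it was 1.10 to 1.28 and in D 1.06 to 1.22. All 13 measured lymph node markers of 17 listed (T cell, B cell and stromal chemokine genes) lay above background on every array, with summed signals of 19972 to 23854. Group D replicate 3 stood apart from its group: across probe sets its mean correlation was 0.931 with group B and 0.930 with group C, but 0.896 with its own group. Whether this array holds the sample it is named for, or a node dissected otherwise than the rest, could not be checked from the labels, so a mean of group D stands for 3 animals of which 1 is in doubt. Results that rest on it are given with and without it. The genes were chosen with their differences from group D known, so those differences are a description and carry no test.

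Krt8 and Krt19 were the members in which all 3 arrays of group D lay above all 9 CLA arrays. Krt8, a type II keratin, read 6.14, 5.73 and 5.53 in group A, 4.94, 5.06 and 5.32 in B, 5.35, 5.14 and 5.24 in C, and 7.27, 7.58 and 7.86 in D (replicates 1, 2 and 3). The means were 5.80 ± 0.31 in group A, 5.11 ± 0.19 in B, 5.24 ± 0.11 in C and 7.57 ± 0.29 in D (SD, n = 3 each, as for every mean here). Against group D the log2 difference was -1.77 in group A, -2.46 in B and -2.33 in C, each with a standard error of 0.21. These amount to levels 3.40-fold, 5.51-fold and 5.01-fold lower than in group D.

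Krt19, a small type I keratin of simple epithelia, read 3.59, 3.29 and 4.40 in group A, 5.06, 2.30 and 4.49 in B, 2.59, 2.55 and 4.60 in C, and 6.38, 7.13 and 7.21 in D. All group D arrays were again the high ones, but 3 of the 9 CLA arrays (group B replicate 2 and group C replicates 1 and 2) were within background, so the low side was spread widely. The log2 difference from group D was -3.15 in group A, -2.96 in B and -3.66 in C, each with a standard error of 0.70. With values within background raised to it, the differences in groups B and C were -2.75 and -3.56. The order of the 3 CLA groups was not separated for Krt19, whose means of 3.76 ± 0.57 in group A, 3.95 ± 1.46 in B and 3.25 ± 1.17 in C lay within their own SD of each other.

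**Figure D1:**
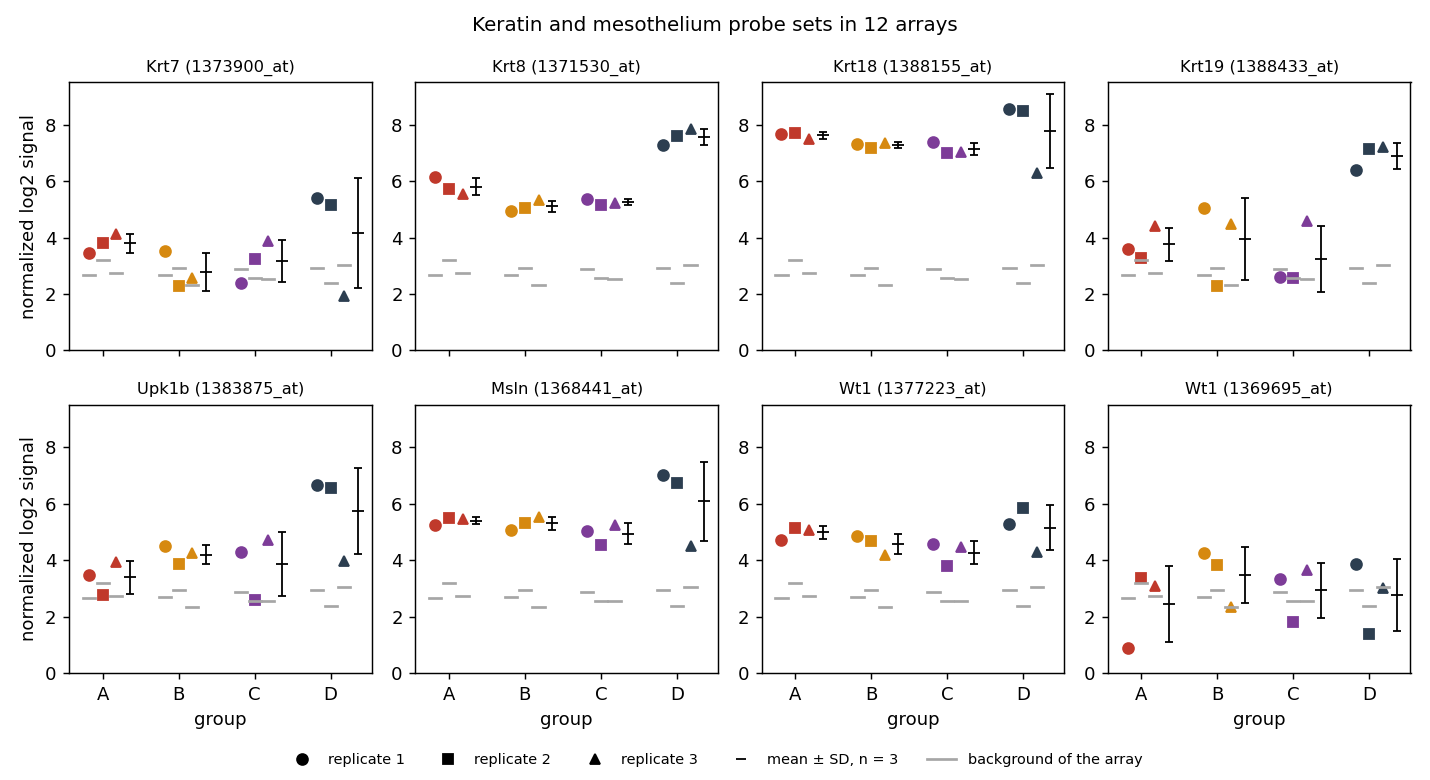
Normalized log2 signal of the 8 member probe sets by group (1 point per array, marker shape for the replicate, grey ticks for the background of each array, bar for the mean ± SD of 3 arrays). In 7 of the 8 panels group D replicates 1 and 2 lie above every CLA array, and group D replicate 3 joins them only for Krt8 and Krt19.

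The other 5 measured genes were high in 2 animals of group D and not in the third. Krt18, the type I partner of Krt8, read 7.68, 7.71 and 7.49 in group A, 7.33, 7.18 and 7.36 in B, 7.38, 7.01 and 7.02 in C, and 8.56, 8.48 and 6.27 in D. The first 2 animals of group D were above all CLA arrays and the third was below all of them. The log2 difference from group D was -0.15 in group A, -0.48 in B and -0.64 in C (standard error 0.44), and -0.90, -1.23 and -1.39 without group D replicate 3. Without group D replicate 1 or 2 the difference in group A turned to 0.25 or 0.21.

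Krt7, a type II keratin of ducts and mesothelium, read 3.45, 3.81 and 4.11 in group A, 3.52, 2.27 and 2.55 in B, 2.41, 3.23 and 3.87 in C, and 5.40, 5.16 and 1.92 in D. Group D replicate 3 was within background for Krt7, below the lowest CLA array at 2.27. The log2 differences from group D of -0.37 in group A, -1.38 in B and -0.99 in C (standard error 0.79) became -1.49, -2.50 and -2.12 without that animal. In group A the difference turned to 0.25 without group D replicate 1 and 0.13 without replicate 2.

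Msln, a glycoprotein anchored on the mesothelial surface, read 5.25, 5.51 and 5.45 in group A, 5.08, 5.32 and 5.54 in B, 5.04, 4.52 and 5.26 in C, and 7.01, 6.74 and 4.49 in D. As for Krt18 and Krt7, replicates 1 and 2 of group D were above and replicate 3 below all 9 CLA arrays, the last by a small margin (4.49 against a lowest CLA array of 4.52). Its differences from group D were -0.68 in group A, -0.77 in B and -1.14 in C (standard error 0.51), and -1.47, -1.56 and -1.94 without group D replicate 3.

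Upk1b, a tetraspanin of the uroplakin plaques of the bladder that mesothelium also makes, read 3.47, 2.77 and 3.92 in group A, 4.50, 3.85 and 4.24 in B, 4.30, 2.59 and 4.72 in C, and 6.67, 6.55 and 3.99 in D. Group D replicate 3 lay within the range of the CLA arrays, still above the 3 arrays of group A. The log2 difference was -2.35 in group A, -1.54 in B and -1.86 in C (standard error 0.70), and without that animal -3.22, -2.42 and -2.74.

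Wt1, a zinc finger transcription factor of mesothelium and kidney, was measured by 2 probe sets that disagreed. The brighter one read 4.72, 5.15 and 5.07 in group A, 4.84, 4.68 and 4.19 in B, 4.56, 3.80 and 4.45 in C, and 5.29, 5.85 and 4.28 in D. Replicates 1 and 2 of group D exceeded every CLA array, the first by little, and replicate 3 was within them. Its differences from group D were -0.16 in group A, -0.57 in B and -0.87 in C (standard error 0.39), and -0.59, -0.998 and -1.30 without group D replicate 3, and in group A it turned to 0.20 without group D replicate 2. The dimmer probe set lay near background, at 0.90 to 3.35 in group A, 2.35 to 4.24 in B, 1.81 to 3.65 in C and 1.39 to 3.87 in D, and showed no such order.

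Over the 7 measured genes the median log2 difference from group D was -0.68 in group A, -1.38 in B and -1.14 in C, while the medians of all probe sets were 0.07, -0.04 and -0.04. Without group D replicate 3 the member medians were -1.49, -2.32 and -2.12. All arrays of group A were below all arrays of group D for 3 of the 8 probe sets (Krt8, Krt19 and Upk1b), where 14.6% of all probe sets were. For groups B and C the count was 2 of 8 each (Krt8 and Krt19), where 7.92% and 8.1% of all probe sets were. Both genes were also below group D in all 3 CLA groups at once, as were 0.86% of all probe sets. Nothing is read from these counts, since the same differences chose the genes. In bulk tissue, fewer cells of a type and less RNA per cell cannot be told apart.

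The place of group D replicate 3 is likewise a description, with no test. In all, 1899 probe sets (6.12% of those tested) had group D replicates 1 and 2 above all 9 CLA arrays. Of these, replicate 3 was also above in 267 (14.1%), within the CLA range in 1436 (75.6%) and below it in 196 (10.3%). Among the 7 member probe sets of this kind, the counts were 2 above (Krt8, Krt19), 2 within (Upk1b and the brighter Wt1) and 3 below (Krt7, Krt18, Msln). Set against the mean of the other animals of group D, replicate 3 differed by -3.36 for Krt7, -2.62 for Upk1b, -2.39 for Msln, -2.25 for Krt18 and -1.29 for Wt1, but by 0.43 for Krt8 and 0.46 for Krt19. In this animal Krt18 was low while its filament partner Krt8 was not.

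Other cell types moved with these arrays. The summed signal of the member genes was 374, 374 and 356 in group A, 322, 268 and 317 in B, 295, 222 and 293 in C, and 928, 983 and 519 in D. Smooth muscle genes (12 of 12 measured, such as the enteric actin Actg2 and the myosin heavy chain Myh11) summed to 2556 to 2641 in group A, 1574 to 1886 in B and 1466 to 1668 in C, with 9042, 9229 and 1776 in D. Their sum in group D replicate 3 was close to the CLA arrays, and all 12 genes were lower there than in replicates 1 and 2.

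Gut epithelium genes ran the other way within group D. Their sum over 18 genes was 234 to 311 in group A, 144 to 224 in B and 174 to 213 in C, with 246, 554 and 1173 in D. In replicate 3 of group D, 12 of the 18 were at their highest of all 12 arrays, among them the epithelial adhesion molecule Epcam (3.70, 5.06 and 7.29 in group D, against CLA arrays of 0.88 to 3.43), the galectin Lgals4 (2.36, 6.76 and 7.83) and the mucin Muc2 (3.44, 5.05 and 6.73). Fibroblast genes (12 of 12 measured) summed to 10907 to 11189 in group A, 8070 to 9827 in B, 7642 to 9335 in C and 9606 to 16981 in D. Pancreas genes stayed low on all arrays, between 71.7 and 126 for the sum of 12. Adipocyte genes (9 of 10 measured) summed to 3622 to 4541 in group A, 4078 to 6550 in B, 3255 to 4625 in C and 4802 to 7084 in D. The part that these cell types have in the member values was not tested.

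**Figure D2:**
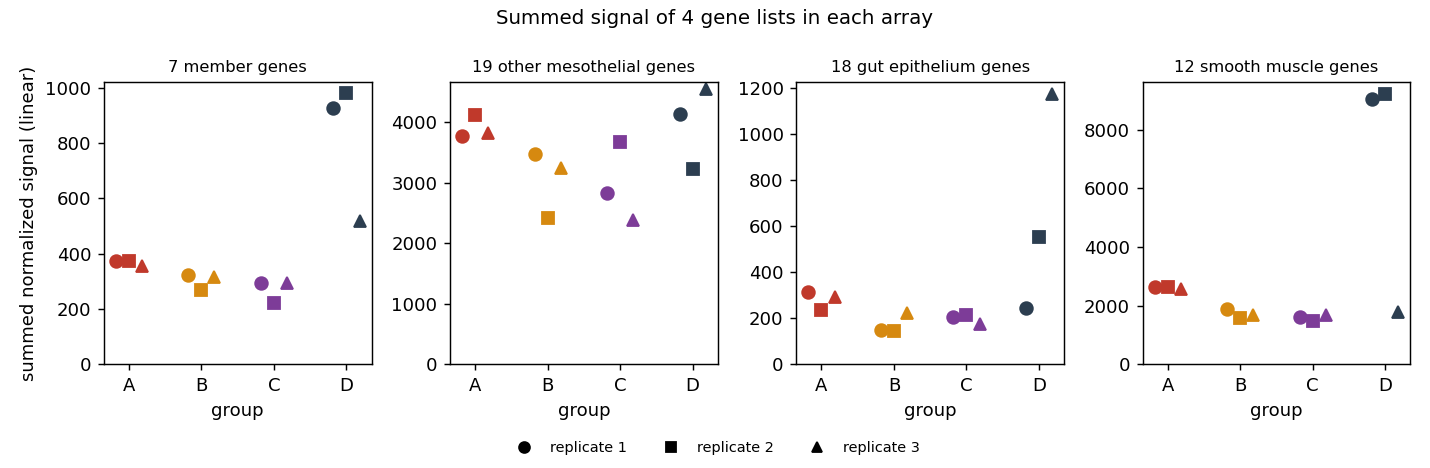
Summed linear normalized signal of the 7 member genes, 19 other mesothelial genes, 18 gut epithelium genes and 12 smooth muscle genes in each array (marker shape for the replicate, group on the horizontal axis, vertical axes from 0 and different in each panel). Group D replicates 1 and 2 are far above the CLA arrays for the member and smooth muscle sums, while group D replicate 3 has the highest gut epithelium sum, 1173.

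Among the CLA groups, whose contrasts did not choose the genes, Krt8 was the member that passed. Krt8 was higher in group A than in groups B and C (log2 difference 0.63, standard error 0.18, 95% interval 0.23 to 1.03, adjusted p = 0.0170 from limma with Benjamini-Hochberg adjustment over all probe sets), and all 3 arrays of group A were above all 6 of groups B and C. In this contrast 20.1% of all probe sets were called higher and 17% lower, so 1 of 8 is no more than the array-wide share. Against group B alone the Krt8 difference was 0.70 (standard error 0.21, limma adjusted p = 0.0247), where 16.8% of probe sets were called higher and 14.5% lower. Without group A replicate 1, the highest CLA array for Krt8, the differences were 0.46 (limma adjusted p = 0.106) and 0.53 (limma adjusted p = 0.106). The second was also lost without group B replicate 1 (limma adjusted p = 0.0814) or group B replicate 2 (limma adjusted p = 0.0690). Lymph node markers moved in the same contrast: of the 13, 4 were lower in group A than in groups B and C by limma (Cr2 at a log2 difference of -2.13, Ptprc at -1.67, Cxcl13 at -1.21 and Ms4a1 at -0.83) and 2 higher (Cxcr5 at 0.55 and Cd3e at 0.43). The hexokinase ratio of group A replicates 1 and 3 lay within the range of group B, and that of replicate 2 was the highest of all arrays. All 3 ratios of group A were above every array of C, at 1.82 to 2.62, and of D, at 1.84 to 2.53. The GAPDH ratio was 1.21, 1.53 and 1.38 in group A, above every array of B, at 1.10 to 1.12. In C it was 1.11, 1.28 and 1.10. The part of these markers and ratios in the Krt8 difference was not tested.

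Krt18 was likewise higher in every array of group A than in any of groups B and C, at a log2 difference of 0.41, but did not pass in the fit of all arrays (standard error 0.38, limma adjusted p = 0.447). It passed in the fit of groups A, B and C only (limma adjusted p = 0.0108) and without group D replicate 3, the array farthest from the others (standard error 0.10, limma adjusted p = 0.00628, where 22.8% of all probe sets were then called higher and 19.2% lower). Non-overlap above groups B and C held for 2 of 8 member probe sets, where 22% of all probe sets had it. The other members gave wide intervals. Krt7 differed by 0.82 (95% interval -0.67 to 2.31), the brighter Wt1 probe set by 0.56 (-0.17 to 1.30), the dimmer one by -0.76 (-2.35 to 0.83), Msln by 0.27 (-0.67 to 1.22), Krt19 by 0.16 (-1.15 to 1.47) and Upk1b by -0.65 (-1.97 to 0.67).

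Gestational CLA, set by group B against group C, was not accompanied by a called difference in any member. No member passed limma in this contrast, none had an unadjusted p under 0.05, and 1 probe set in all was called higher (0.00322%) and 0 lower (0%). The interval was narrowest for Krt8, at -0.14 (95% interval -0.60 to 0.32), and wide for Krt19, at 0.71 (-0.81 to 2.22). For every member but Krt8 the interval reached past a log2 difference of 1 in at least 1 direction.

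**Figure D3:**
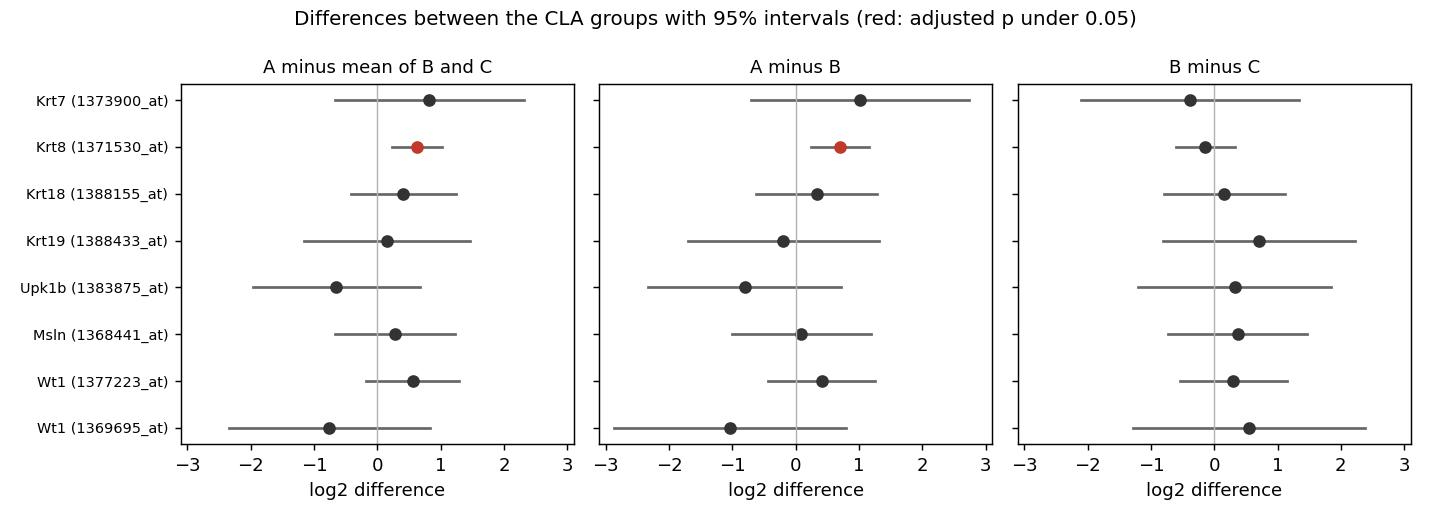
Log2 differences of the 8 member probe sets between CLA groups with 95% intervals (points, fitted difference; horizontal axis, log2 difference; red, limma adjusted p under 0.05). Krt8 is called for group A against both gavage groups (0.63) and against group B (0.70), and no probe set is called for group B against group C.

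The members did not all vary together. Over the 12 arrays, which share the split of group D, Krt18 and Msln had a Pearson r of 0.92, Krt7 and Krt18 0.83, Upk1b and Msln 0.81 and Krt8 and Krt19 0.81, whereas Krt8 and Krt18 had 0.28 and Krt18 and Krt19 0.22. Over the 9 CLA arrays alone Krt8 and Krt18 had an r of 0.78, Krt18 and Msln 0.55, and Krt8 and Krt19 -0.05. The genes whose pattern over 12 arrays was most like the mean of the members were Synm (r = 0.97), Actg2 (0.96), Pln (0.95), Plekhb1 (0.95), Myh11 (0.95), Ext1 (0.94), Smoc2 (0.94), Wfdc21 (0.94), Ccn3 (0.94) and Tpm1 (0.93). Synm, Actg2, Pln, Myh11 and Tpm1 are genes of muscle filaments or of calcium handling in muscle. Synm read 5.28, 5.14 and 5.33 in group A, 5.35, 5.27 and 5.27 in B, 4.41, 4.05 and 5.23 in C, and 7.48, 7.61 and 5.33 in D. It was picked for likeness to the member mean, which was highest in group D replicates 1 and 2. That Synm was high in the same 2 animals is therefore no separate result.

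Other mesothelial genes were listed from textbook knowledge, but with earlier results of these data known, so their calls against group D are not independent evidence of a direction. Of 21 listed, 19 were measured (all but Cldn15 and Muc16). In group A 3 were lower than in group D at an adjusted p under 0.05 and none higher. Array-wide, 10.2% of all probe sets were called lower and 10.1% higher. The 3 include Aldh1a1, listed with its difference known, so the count is a description. In groups B and C limma called none of the 19, where 0.00966% of all probe sets were called lower and 0.00644% higher in group B, and 0.029% lower and 0.0226% higher in group C. At an unadjusted p under 0.05 in limma, 4 of the 19 were lower in B and 7 in C and 0 higher in either, where 7.2% of all probe sets were lower and 8.58% higher in B, and 8.27% lower and 9.41% higher in C. The unadjusted counts include Aldh1a1 in B and C, and Efemp1 in C. The median difference of the 19 was -0.02 in group A, -0.62 in B and -0.78 in C.

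The retinal dehydrogenase Aldh1a1, whose difference from group D was known when it was listed, is given without a test. It read 0.07, 0.00 and 0.00 in group A, 0.00, 2.94 and 3.07 in B, 2.46, 0.33 and 0.00 in C, and 4.91, 5.86 and 2.98 in D, where 0.00 is the floor. Groups A and C were within background on all arrays, so their levels were at least 3.29-fold and 3.78-fold lower than the mean of group D. Group D replicate 3 was itself within background. The sulfatase Sulf1, which trims heparan sulfate, read 4.66, 4.38 and 4.69 in group A and 5.92, 6.04 and 5.44 in group D, a log2 difference of -1.22 (standard error 0.28, limma adjusted p = 0.00896). Sulf1 was also lower in group A than in groups B and C (log2 difference -0.84, limma adjusted p = 0.0162). The transcription factor Bnc1 was called lower in group A (limma adjusted p = 0.0185), at least 1.22-fold, from levels within background on all group A arrays and near it in group D (3.14, 3.67 and 2.64).

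Replicates 1 and 2 of group D were above all CLA arrays for 8 of the 19 genes, against the 6.12% of all probe sets given above. These 8 include Aldh1a1 and Efemp1. Replicate 3 was not above them for any of these 8, where it was for 14.1% of all such probe sets. Nothing is read from either share, since the list was made with earlier results of these data known and 8 genes are few. The summed signal of the 19 ran otherwise, at 3776 to 4113 in group A, 2413 to 3474 in B and 2377 to 3674 in C, with 4136, 3217 and 4548 in D. Its brightest gene was the secreted protease inhibitor Slpi, at 11.50, 10.90 and 11.98 in group D. Without replicate 3, 6 of the 19 were lower in group A, 6 in B and 9 in C, and none higher. Of all probe sets, 10.9%, 7.81% and 9.14% were called lower and 11%, 9.5% and 10.3% higher. Each count of the 19 includes Aldh1a1 and Efemp1, listed with their differences known, so the counts are a description. Nkain4, a sodium pump partner, read 1.56, 1.90 and 1.93 in group A, 2.95, 2.18 and 2.16 in B, 2.12, 0.88 and 1.51 in C, and 5.61, 5.18 and 1.14 in D. With all arrays Nkain4 was at least 2.16-fold lower in group A (limma adjusted p = 0.127) and at least 2.48-fold lower in C (limma adjusted p = 0.211). Without group D replicate 3 it was at least 5.78-fold (limma adjusted p = 0.000825) and 6.64-fold (limma adjusted p = 0.000561) lower. In group B the log2 difference was -1.55 with all arrays (limma adjusted p = 0.444) and -2.97 without that animal (limma adjusted p = 0.00355). Nkain4 was chosen after its values were seen, and the array left out is low for it. Its p-values are therefore a description and no test. The matrix protein Efemp1, likewise listed with its differences known and given without a test, differed from group D by -0.71 in group A, -0.79 in B and -1.09 in C, and by -1.23, -1.31 and -1.62 without that animal. The calcium binding protein Calb2, a common mesothelial stain, read 5.55, 5.24 and 1.25 in group D and 4.24, 0.00 and 0.08 in group C. Of these group C arrays, 1 was above background. With all arrays Calb2 differed from group D by 0.09 in group A, -0.62 in B and -2.57 in C. The limma adjusted p-values were 0.974, 0.842 and 0.281. Without group D replicate 3 the differences were -1.29, -2.005 and -3.96 (limma adjusted p = 0.433, 0.214 and 0.0166). The group C difference rests in part on readings at or near the floor. Like Nkain4, Calb2 was chosen after its values were seen, and the array left out is low for it. The p-values of Calb2 are therefore also a description and no test.

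Podoplanin (Pdpn), a mucin-like surface protein of mesothelium, lymphatic vessels and lymph node stroma, read 7.64, 7.75 and 7.48 in group A, 6.49, 6.58 and 6.62 in B, 6.75, 6.56 and 6.19 in C, and 7.95, 7.87 and 6.01 in D. Pdpn was higher in group A than in groups B and C (1.09, limma adjusted p = 0.0213), as were the protein C receptor Procr (0.87, limma adjusted p = 0.0403) and podocalyxin, Podxl (0.86, limma adjusted p = 0.00148). These genes are also made by endothelial or stromal cells of the node. With Sulf1 as the exception that was lower, they were the 4 of 19 that passed in that contrast, in which 20.1% of all probe sets were called higher and 17% lower, so these counts are not above the array-wide share.

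**Figure D4:**
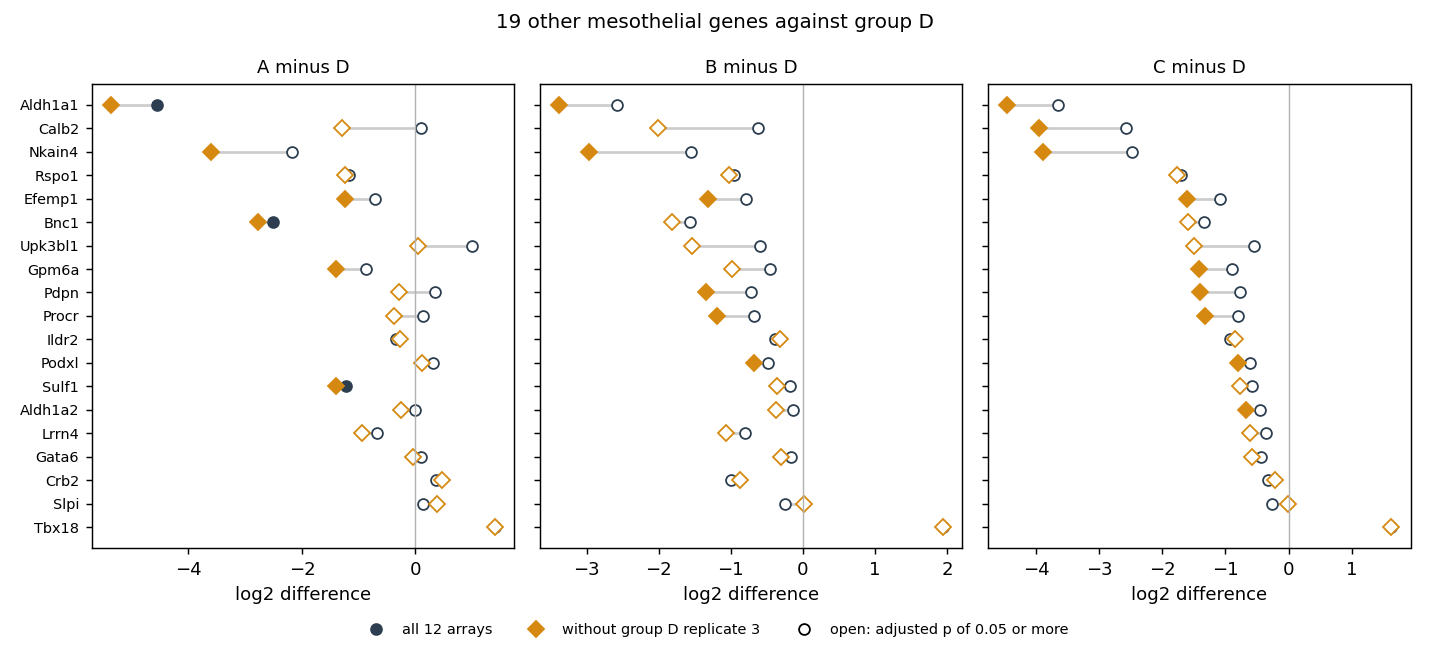
Log2 differences from group D of 19 other mesothelial genes in groups A, B and C (circles, all 12 arrays; diamonds, without group D replicate 3; filled, limma adjusted p under 0.05; horizontal ranges differ between panels). Filled symbols number 3, 0 and 0 with all arrays and 6, 6 and 9 without that animal, all to the left of 0. They include Aldh1a1 and, without that animal, Efemp1, both listed with their differences known.

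Among the 21 other keratins measured, 14 were above background on all arrays of at least 1 group (Krt5, Krt10, Krt12, Krt13, Krt14, Krt15, Krt17, Krt20, Krt23, Krt33b, Krt71, Krt78, Krt86 and Krt90), and 4 of them (Krt10, Krt13, Krt23 and Krt33b) on all 12. The median difference from group D over the 21 was 0.50 in group A, -0.35 in B and -0.55 in C. Krt20, the type I keratin of gut epithelium, was the one whose 3 group D arrays all exceeded the CLA arrays, as for Krt8 and Krt19. It read 3.74, 2.72 and 2.89 in group A, 4.10, 2.23 and 2.07 in B, 3.72, 3.67 and 3.68 in C, and 4.34, 5.17 and 5.17 in D, and was lower in group A (-1.78, standard error 0.55, limma adjusted p = 0.0364, but 0.0848 without group D replicate 3). Krt13, a type I keratin of stratified epithelium, was higher in group A than in D (0.93, limma adjusted p = 0.0361, but 0.0897 without group D replicate 3) and than in groups B and C (1.23, limma adjusted p = 0.00166). Krt10 (0.94, limma adjusted p = 0.0216) and Krt33b (1.14, limma adjusted p = 0.0127) were also higher in group A than in groups B and C, and no keratin was lower there, so that 3 of 21 were called higher where 20.1% of all probe sets were. In groups B and C no other keratin was called against group D with all arrays. At an unadjusted p under 0.05 in limma, 1 was lower and 1 higher in B, and 6 lower and 1 higher in C (array-wide shares at that p as given for the mesothelial genes). Without group D replicate 3, limma called 1 of the 21 lower in B and 3 in C at an adjusted p under 0.05, and 0 higher. Of all probe sets, 7.81% in B and 9.14% in C were then called lower, and 9.5% and 10.3% higher.

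The remaining uroplakins Upk1a, Upk2 and Upk3a were dim, with a summed signal of 11.4 to 14.0 in group A, 18.5 to 21.6 in B, 3.25 to 5.89 in C and 11.7 to 21.5 in D. Upk3a was above background on all arrays of a group, in groups B and D. Upk1a was called higher in group A than in group D (limma adjusted p = 0.0430, but 0.0882 without group D replicate 3), where 10.1% of all probe sets were with all arrays. Its readings were 2.67, 2.10 and 1.77 in group A and 0.33, 0.16 and 0.00 in group D, of which 1 was above background.

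Genes that anchor keratin filaments at desmosomes and hemidesmosomes were mixed. Of 12 measured, 2 were lower and 1 higher in group A than in D, where 10.2% of all probe sets were called lower and 10.1% higher, and limma called none in groups B and C, with 2 lower in B, 1 lower in C and 0 higher in either at an unadjusted p under 0.05, where 7.2% and 8.27% of all probe sets were lower. Periplakin (Ppl), a plakin that binds keratins, read 3.11, 3.21 and 3.41 in group A, 4.30, 3.50 and 3.96 in B, 4.04, 4.30 and 4.67 in C, and 5.24, 5.42 and 4.05 in D, lower in group A at a log2 difference of -1.66 (standard error 0.41, limma adjusted p = 0.0126). The plakin Dst was lower in group A (log2 difference -0.63, limma adjusted p = 0.0181), and plakoglobin (Jup) was higher, at 8.76, 8.89 and 8.57 in group A against 7.86, 7.93 and 7.30 in D (1.05, limma adjusted p = 0.00169). Ppl, Dst and Jup kept these calls without group D replicate 3 (limma adjusted p = 0.00190, 0.0399 and 0.00228). Desmoplakin (Dsp), the main keratin anchor of desmosomes, read 7.39, 7.58 and 7.48 in group A, 7.41, 7.49 and 7.61 in B, 7.49, 7.28 and 7.25 in C, and 7.90, 7.81 and 6.63 in D. It had the split of Krt18 on a smaller scale, with group D replicates 1 and 2 above and replicate 3 below all CLA arrays.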

How the data were processed

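MLN messenger RNA of 12 pups was hybridized to 1 array each. The deposited values were produced by the authors with MAS5, per the labels, as signal intensities on a linear scale, not scaled between arrays. The file's 30 zeros took the smallest positive value, log2 intensities were quantile normalized over 12 arrays, values under an intensity of 1 were raised to 1, and 57 control probe sets were left out. Groups were compared with limma 3.58.1 in R 4.3.3 (1 mean per group, all 12 arrays, eBayes with trend, two-sided, Benjamini-Hochberg over 31042 probe sets, threshold 0.05), checked on simulated data. The smallest exact permutation p for 3 against 3 is 0.1, and the number of arrays limits the precision. The brightest probe set stood for a gene in counts. Symbols were updated by gene number to GRCr8, used for names, order of genes and promoter windows.

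The members and gene lists were chosen with earlier results of these data known. Named are all member probe sets, detected keratins and uroplakins, and the 10 genes most like the members (above background on at least 6 arrays). Genes passing against group D are named for the mesothelial, keratin, uroplakin and desmosome lists. The other cell type lists are given mainly as sums, and their passing genes are not all named. Genes of a list named beyond these, such as Pdpn, Nkain4, Calb2 and Dsp, were chosen after their values were seen. The plan counted 8 measured member genes, of which 7 had a probe set. Alternatives tried were no variance trend, centring on the 75th percentile, the deposited values without scaling, a floor of 32, omitting the dimmest 40%, only the groups compared, a replicate block and leaving out each array. The authors' own comparisons were not used.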

Additional observations from a re-analysis of the deposited data

How the results depend on the processing

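Krt8 and Krt19 kept their direction against group D in all 3 CLA groups under each alternative run. Of the members called among CLA groups, the count for group A against both gavage groups was 1, against 2 in a fit of only these groups and 0 to 2 when 1 array was left out (0 without group A replicate 1, 2 without group D replicate 3). For group A against group B the count was 1, against 0 when centred on the 75th percentile, 2 in a fit of only these groups, and 0 to 2 when 1 array was left out (0 without A replicate 1, B replicate 1 or B replicate 2, 2 without group D replicate 3). Other mesothelial genes lower in group A than in group D numbered 3, against 0 with a floor of 32, 1 of the 10 that stayed when the dimmest 40% of probe sets were left out, and 2 to 6 when 1 array was left out. In group B the count was 0, and 0 to 6 when 1 array was left out. In group C it was 0, against 13 on values as deposited, where the median of all probe sets was itself shifted by -0.70, and 0 to 9 when 1 array was left out. The highest of each range was without group D replicate 3, where the mesothelial counts include Aldh1a1 and Efemp1.

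The member medians against group D ranged over -1.49 to -0.21 in group A, -2.32 to -0.76 in B and -2.12 to -0.80 in C when 1 array was left out, lowest without group D replicate 3 and highest without group D replicate 1. On values as deposited the medians of all probe sets were -0.12 in group A, -0.55 in B and -0.70 in C. Against group D, Krt7 in group A was 0.25 without group D replicate 1 and 0.13 without group D replicate 2, Krt18 in group A was 0.25 and 0.21, and Wt1 in group A was 0.20 without group D replicate 2, while leaving out 1 array at a time gave -1.49 to 0.25 for Krt7, -0.90 to 0.25 for Krt18 and -0.59 to 0.20 for Wt1. Krt19 in group A against groups B and C changed sign at -0.0098 with a floor of 32, -0.16 without group A replicate 3, -0.25 without group B replicate 2, -0.0057 without group C replicate 1 and -0.014 without group C replicate 2, over a range of -0.25 to 0.50 with 1 array left out. With a floor of 32, Krt19 differed from group D by -1.91 in group A, -1.89 in B and -1.91 in C. Krt8 in group B against group D was -2.91 on values as deposited. The cause of these changes was not tested, other than the floor and the samples left out.

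Same-numbered arrays of different groups deviated together by an r of -0.02 to 0.08 over 18 pairs, so the numbers were not taken to pair animals. With a replicate block 1 member was called for group A against both gavage groups, 1 for group A against group B and 0 for group B against group C, and the other mesothelial counts were 3, 0 and 0. The member medians with the block were -0.68, -1.38 and -1.14. Probe sets near background (Krt7, Krt19, Upk1b and the dimmer Wt1 probe set in CLA arrays) have the least certain differences.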
